A study of Mus musculus with 2 samples.

Results

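Sox5, Sox6 and Sox9 are 3 of the 32285 genes counted in this series, and they were chosen by their symbols. Their counts were followed over all 1857 cell barcodes of 2 single-cell RNA libraries, replicate 1 (1008 barcodes) and replicate 2 (849 barcodes), including barcodes with over 20% mitochondrial molecules. The source of both was whole blood, drawn from wild type mice that had been through burn/tenotomy, in which a skin burn is combined with cutting a tendon and bone later forms in soft tissue. The blood was enriched for rare nucleated cells on the iChip, a microfluidic sorter, and the labels name the cells as cMPCs (circulating mesenchymal progenitor cells) and blood cells. The 2 libraries form 1 group. Age and the time after injury were not stated in the labels, and no uninjured group was analysed here. The labels do not say whether the replicates are different animals, so their spread may be technical, and p-values measure no spread between animals. Values are unique molecular identifiers (UMIs), each standing for 1 captured RNA molecule.

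The SOX proteins are transcription factors that bind DNA through a shared HMG box. SOX9 is the master regulator of cartilage formation and drives the genes of cartilage matrix, such as Col2a1 and Acan. SOX5 and SOX6, which form the SoxD group, have no transactivation domain of their own and help SOX9 at these genes. SOX6 also acts outside cartilage: in red cell precursors it silences embryonic globin genes together with BCL11A and supports maturation. SOX5 transcripts are known from subsets of B cells.

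GENCODE M21 places Sox5 (ENSMUSG00000041540) on mm10 chr6:143828425-144781977, minus strand, a span of 953.553 kb with 14.376 kb of exons. Sox6 (ENSMUSG00000051910) lies on chr7:115470872-116038796, minus strand, over 567.925 kb with 14.832 kb of exons. Sox9 (ENSMUSG00000000567) lies on chr11:112782224-112787760, plus strand, and is short, 5.537 kb with 4.135 kb of exons. Of 6546 genes found in at least 10 barcodes, the median span was 40.6 kb, and 0.642% were longer than Sox5 and 1.36% longer than Sox6. Whether intronic reads were counted, and on which strand, was not given in those sources. Sox5 overlaps 6 further genes of the table (5 antisense, 1 sense) and Sox6 overlaps 2 antisense genes. These overlapping genes held 2 UMIs at each locus.

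The genes are related, so their transcripts were compared for stretches that a short read could not tell apart. The lines below give 100 bases of coding sequence from the HMG box of each gene, read from GENCODE M21 transcripts of mm10 (Sox5 chr6:143841190-143841289, exon 13, minus strand; Sox6 chr7:115489679-115489778, exon 14, minus strand; Sox9 chr11:112782887-112782986, exon 1, plus strand). Capitals mark bases that differ from Sox5.
Sox5: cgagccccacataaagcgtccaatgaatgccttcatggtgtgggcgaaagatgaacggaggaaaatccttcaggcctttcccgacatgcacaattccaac
Sox6: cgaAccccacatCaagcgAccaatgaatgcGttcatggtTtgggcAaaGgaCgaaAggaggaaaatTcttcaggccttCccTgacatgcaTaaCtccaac
Sox9: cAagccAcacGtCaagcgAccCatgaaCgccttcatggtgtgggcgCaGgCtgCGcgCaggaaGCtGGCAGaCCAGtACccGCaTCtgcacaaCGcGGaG

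The stretch was chosen as the 100 bases where the coding sequences of Sox5 and Sox6 matched best. For Sox9 the best match to the Sox5 stretch was taken. In this stretch Sox6 matched Sox5 at 86 of 100 bases and Sox9 matched Sox5 at 65, so these are highest values and not typical ones. The longest run of identical bases between any protein-coding transcripts was 23 bases for Sox5 and Sox6, 18 for Sox5 and Sox9 and 14 for Sox6 and Sox9. The read length was not given.

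Barcodes were placed in 3 classes by genes other than the members. Globin-rich barcodes had at least 50% of their UMIs from globin genes (474 and 373 barcodes in replicates 1 and 2, median 5979.5 and 6048 UMIs). Ptprc barcodes had a UMI of Ptprc, which encodes CD45, the surface phosphatase of all leukocytes (85 and 12 barcodes, median 1702 and 1603.5 UMIs). Marker barcodes had UMIs of at least 2 of Wt1, Muc16, Gpm6a, Col3a1 and Dcn, which are genes of mesothelium and of collagen-rich connective tissue (32 and 23 barcodes, median 2203.5 and 4592 UMIs). The remaining 422 and 441 barcodes fell in no class. The classes overlapped in 4 barcodes, 1 of which was in all 3, and no barcode sequence occurred in both libraries (0 shared). Library depth was 3967318 and 3329292 UMIs. Levels are UMIs per 1e6 UMIs of the class in that library (CPM), as mean ± SD of the 2 libraries, and intervals are exact Clopper-Pearson 95% intervals, which cover counting error only.

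The marker barcodes were checked against lists of cell type genes. All 16 genes of the mesothelial list had UMIs there, with a summed level of 9829 CPM in replicate 1 and 12592 in replicate 2. Of 22 fibroblast or mesenchymal genes 18 had UMIs, with a summed level of 3489 and 5835 CPM. Thy1 was at 0 and Pdgfra, a growth factor receptor of mesenchymal progenitors, had 2 UMIs. Other members were higher: Col1a2 had 37 and 69 UMIs in replicates 1 and 2, Fbn1 8 and 31, and Prrx1 2 and 12. Without the genes of the class rule, the 13 other mesothelial genes summed to 6912 and 8923 CPM and the 20 other fibroblast or mesenchymal genes to 1487 and 2611. Of the other lists, epithelial genes summed to 257 and 816 CPM, erythroid genes to 448 and 178, leukocyte genes to 267 and 72.7, and Schwann or glial genes to 181 and 283. Platelet genes summed to 153 and 210 CPM, smooth muscle or pericyte genes to 38.1 and 218, endothelial genes to 57.2 and 32.3, and skeletal muscle genes to 19.1 and 8.08. The class is called here by its rule, since these sums do not give it the single identity of the label.

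Most UMIs of Sox5 and Sox6 lay in the marker barcodes, and Sox9 was at the limit of detection. Over both libraries Sox5 gave 284 UMIs in 73 barcodes and Sox6 gave 380 UMIs in 121 barcodes. Marker barcodes were 2.96% of all barcodes and held 3.13% of all UMIs, but 61.3% of the Sox5 UMIs and 69.2% of the Sox6 UMIs. Counted by barcodes, Sox6 was present in 42 of 55 marker barcodes and in 64 of 863 in no class. For Sox5 these counts were 35 and 23. Sox9 gave 1 UMI in 1 barcode.

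In marker barcodes, Sox5 had 86 UMIs in replicate 1 (820 CPM) and 88 in replicate 2 (711 CPM), with a mean of 766 ± 76.8 (SD, n = 2). Sox6 had 105 and 158 UMIs, a level of 1001 and 1277 CPM (1139 ± 195, SD, n = 2). For each gene the libraries lay close to each other compared with the gaps to the other classes. Per kilobase of gene span, Sox6 stood at 1.76 and 2.25 CPM per kb and Sox5 at 0.860 and 0.746. Per kilobase of exon, Sox6 stood at 67.5 and 86.1 CPM per kb and Sox5 at 57.0 and 49.5. On both length scales Sox6 was above Sox5 in each library.

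**Figure D1:**
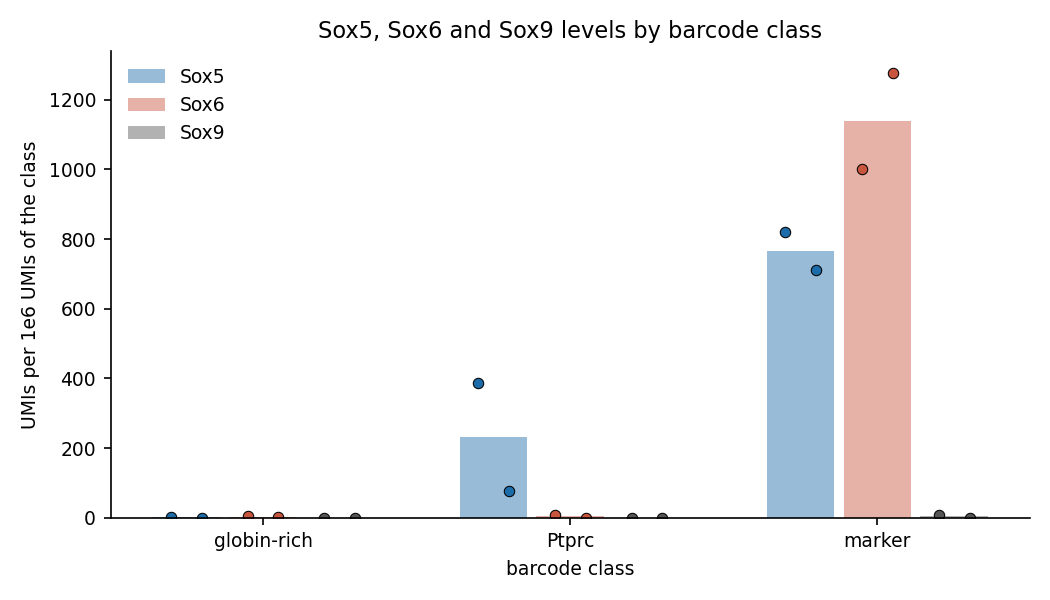
Levels of Sox5, Sox6 and Sox9 (y axis, UMIs per 1e6 UMIs of the class) in the 3 barcode classes (x axis); points are the 2 libraries, replicate 1 left and replicate 2 right, and bars their mean. Sox5 and Sox6 are highest in marker barcodes, Sox5 also has 387 and 78.0 in Ptprc barcodes, and Sox9 stays near 0.

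A UMI of Sox5 was present in 20 of 32 marker barcodes of replicate 1 (62.5%, interval 43.7 to 78.9) and in 15 of 23 of replicate 2 (65.2%, 42.7 to 83.6). Sox6 was present in 24 of 32 (75%, 56.6 to 88.5) and 18 of 23 (78.3%, 56.3 to 92.5). The shares of the libraries overlapped within their intervals for both genes. Because deeper barcodes show more genes, the shares were also computed as the expected share after thinning every barcode to 1000 UMIs, which left out 5 and 4 shallower marker barcodes. Thinned, Sox5 was expected in 43.2% and 43.5% of marker barcodes and Sox6 in 54.7% and 58.1%.

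The UMIs were spread unevenly over these barcodes. Sox5 had a median of 1 UMI per marker barcode in each library and a highest value of 14 in replicate 1 and 17 in replicate 2. Sox6 had a median of 1.5 and 3 and a highest value of 26 and 48. The 3 barcodes with most Sox5 held 38.4% and 50% of its marker-class UMIs, and the 3 with most Sox6 held 43.8% and 57.6%. The barcode with 48 Sox6 UMIs was also deep, with 21012 UMIs and 4928 genes, and it had 6 UMIs of Sox5. Across the 55 marker barcodes the rank correlation with depth was 0.609 for Sox5 UMIs and 0.739 for Sox6 UMIs, given as a description since barcodes of a library share their source.

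**Figure D2:**
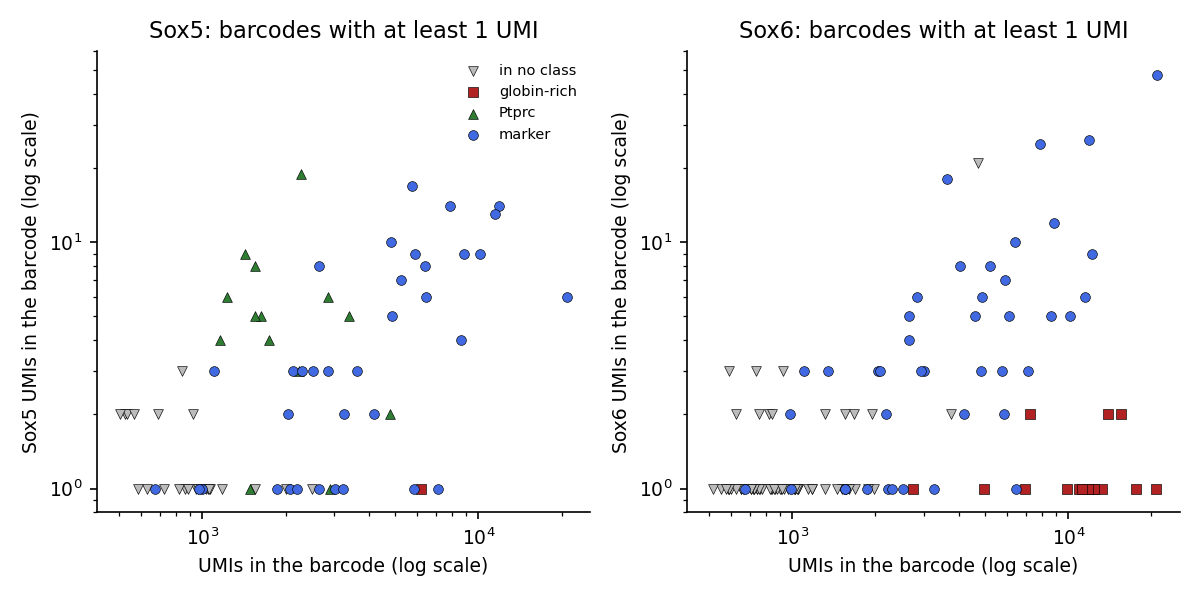
Sox5 (left) and Sox6 (right) UMIs (y axis, log scale) against all UMIs of the barcode (x axis, log scale), for barcodes with at least 1 UMI of the gene; a barcode in several classes is drawn once, as marker before Ptprc before globin-rich. Sox5 has a second set of high barcodes with Ptprc, up to 19 UMIs, and Sox6 has 1 high barcode outside the classes, with 21 UMIs.

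Detection followed the number of marker genes in a barcode. Of barcodes with 0, 1, 2, 3, 4 and 5 of the 5 marker genes, Sox6 was present in 3.83%, 16.5%, 43.8%, 71.4%, 87.5% and 100%. Sox5 was present in 2.03%, 3.80%, 37.5%, 28.6%, 75% and 93.8%. These bins hold 1723, 79, 16, 7, 16 and 16 barcodes, so the order among the smaller ones is loose. Sox5 was lower with 3 markers than with 2, and in replicate 2 Sox6 was at 0 in the 5 barcodes with 2 markers. Depth moved with the bins as well, from a median of 883 UMIs with 1 marker gene to 5851 with all 5, and its part in the rise was not tested. As a level per total UMIs, Sox6 stood at 302 CPM with 2 markers, 893 with 3, 935 with 4 and 1501 with 5. Sox5 stood at 437, 223, 844 and 902 CPM. The totals include mitochondrial UMIs, whose median share per barcode fell over the same bins, at 33.3%, 16.5%, 12.2% and 3.33%. Levels without mitochondrial UMIs were not computed for the bins, so the part of that fall in the higher levels was not tested.

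**Figure D3:**
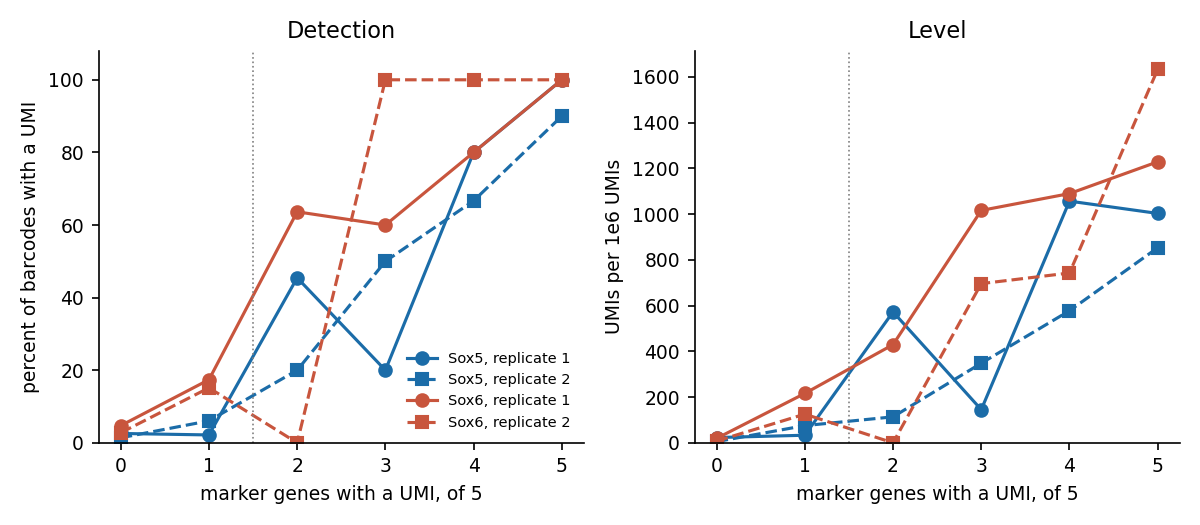
Percent of barcodes with a UMI of Sox5 or Sox6 (left) and their level in UMIs per 1e6 UMIs (right) by the number of marker genes with a UMI (x axis); lines are libraries, and the dotted line is the limit of the marker class. With all 5 marker genes Sox6 is in 100% of barcodes of each library and Sox5 in 100% and 90%, and with 0 of them each gene is in under 5% of barcodes.

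Most marker barcodes, 47 of the 55, had both a mesothelial gene (Wt1, Muc16 or Gpm6a) and a connective tissue gene (Col3a1 or Dcn). In those 47, Sox5 was present in 70.2% and Sox6 in 80.9%. Only 4 barcodes had connective tissue genes alone, and they held 0 UMIs of Sox5 and 1 of Sox6. Another 4 had mesothelial genes alone. These sets are too small to compare.

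Barcodes with much mitochondrial RNA, often a sign of damaged cells, made up 21 of the 55. In marker barcodes with at most 20% mitochondrial UMIs, Sox5 was at 906 and 741 CPM and Sox6 at 1117 and 1375 CPM. In those over 20%, Sox5 was at 534 and 567 CPM and Sox6 at 616 and 804. Per total UMIs both genes were lower in the mitochondria-rich barcodes of each library, which were also shallower (median 2082 against 4695 UMIs). Malat1, a nuclear RNA, was lower there too, at 7271 and 5153 CPM against 60332 and 33867. These totals include the mitochondrial UMIs that set the groups apart, which lowers the level of every other gene in mitochondria-rich barcodes. Levels without mitochondrial UMIs were not computed for these groups, so a lower amount among the remaining UMIs is not shown.

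Sox5 and Sox6 were often found in the same marker barcode. Both were present in 18 of 32 barcodes of replicate 1 and 14 of 23 of replicate 2, which is 58.2% of the 55 (interval 44.1 to 71.3). Sox5 alone was present in 3, Sox6 alone in 10 and neither in 10. Of marker barcodes with Sox5, 91.4% also had Sox6, and of those with Sox6, 76.2% also had Sox5. The product of the single shares, 46.9% in replicate 1 and 51.0% in replicate 2, lay below the observed 56.3% and 60.9%. Depth differed between these sets, with a median of 4498 UMIs in barcodes with both genes and 1010 in those with neither, and its part in the overlap was not tested. Sox6 had more UMIs than Sox5 in 27 barcodes and fewer in 13. Per UMI of the barcode, the 2 genes had a rank correlation of 0.361 over the 55 barcodes.

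**Figure D4:**
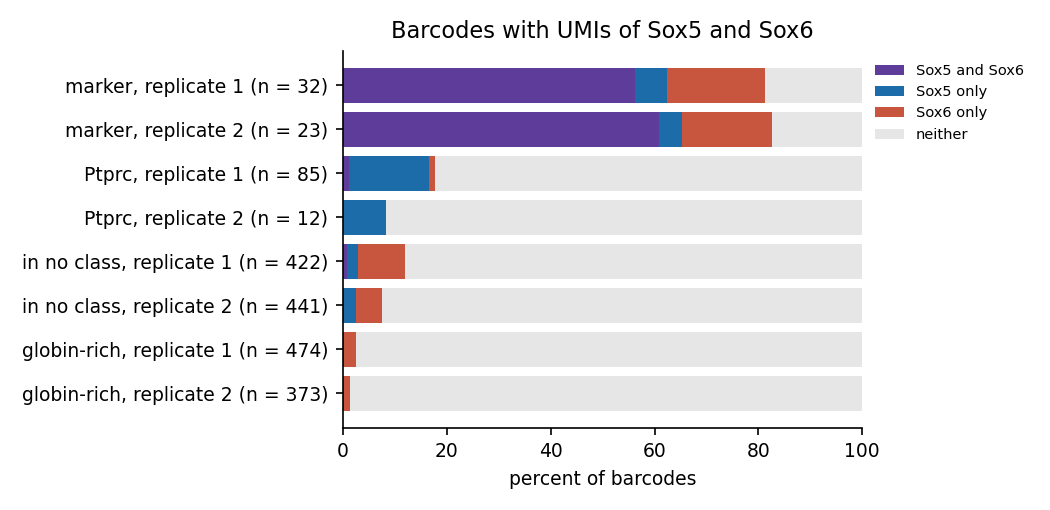
Percent of barcodes (x axis) with UMIs of both Sox5 and Sox6, of 1 of them or of neither, by class and library (rows, with the number of barcodes). Barcodes with both genes are common in the marker class, 56.3% and 60.9%, and in the Ptprc class 14 of the 16 barcodes with either gene have Sox5 alone.

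In Ptprc barcodes Sox5 was present and Sox6 was not, apart from barcodes that also belonged to another class. Sox5 had 82 UMIs in replicate 1 (387 CPM) and 2 in replicate 2 (78.0 CPM), with a mean of 233 ± 219 (SD, n = 2). It was present in 14 of 85 barcodes (16.5%, interval 9.31 to 26.1) and 1 of 12 (8.33%, 0.211 to 38.5), with up to 19 UMIs in a barcode. The libraries differed widely, and with 12 barcodes replicate 2 could show little: its floor of 3 counts stands at 117 CPM. Thinned to 1000 UMIs, Sox5 was expected in 17.7% and 5.36% of Ptprc barcodes, with 16 and 5 shallower barcodes left out.

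The Ptprc barcodes with Sox5 carried B cell genes. All 14 in replicate 1 had UMIs of Ebf1, a transcription factor that sets B cell identity, and of Bank1, an adaptor of B cell receptor signalling, and 9 had Pax5, which keeps B cells in their lineage. In the 71 Ptprc barcodes of replicate 1 without Sox5, Ebf1 was present in 19, Bank1 in 21 and Pax5 in 18. Ms4a1 was in 6 of the 14 and in 6 of the 71. Cd79a, named after its values were seen, was in 2 of the 14 and in 6 of the 71. The median depth was alike, 1686 UMIs with Sox5 and 1702 without. The only Sox5 barcode of replicate 2 also had Ebf1, Bank1, Pax5 and Ms4a1, and no Cd79a. The myeloid genes Lyz2, Csf1r and S100a8 and the T cell gene Cd3e, chosen after values were seen, were in 0 of the 15 barcodes with Sox5. Of the 71 without it in replicate 1, Lyz2 was in 18, Csf1r in 13, S100a8 in 8 and Cd3e in 2. Cd3e was thus rare in both groups. Not every barcode with B cell genes had Sox5: of the Ptprc barcodes without it, 19 of 71 and 4 of 11 still had at least 2 genes of the B cell list. Mitochondrial RNA moved with Sox5 in this class. Of its 84 UMIs there, 57 lay in 7 barcodes of replicate 1 with over 20% mitochondrial UMIs, and at most 20% the level in replicate 1 was 145 CPM. Replicate 2 had 2 UMIs in barcodes with at most 20%, under the floor of 3 counts.

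Sox6 had 2 UMIs in Ptprc barcodes of replicate 1 and 0 in replicate 2. Both UMIs lay in barcodes of more than 1 class. In the 93 barcodes of the Ptprc class alone it had 0 UMIs, which by a floor of 3 counts allows a share of up to 3.23% of barcodes with a UMI (upper end of the exact interval 3.89%). Against a floor of 3 counts over that group, the marker level was at least 83.9-fold higher.

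The test of class against class used edgeR's quasi-likelihood test on UMIs summed per class and library, with the library as a block and Benjamini-Hochberg adjustment over all 3103 genes tested. Sox9 had too few counts to be tested. With 2 residual degrees of freedom, the spread was the one shared across genes, so a low p-value does not show that the libraries agree. In marker against Ptprc barcodes, 24.7% of genes tested passed an adjusted p under 0.05, 15.9% as higher in marker barcodes. Sox6 was among the latter, with a fitted log2 fold change of 13.50 (SE 2.28, edgeR adjusted p = 6.89e-07) that depends on the prior count, since the Ptprc side held 0 UMIs. In all comparisons Sox6 had passed the filter on low counts through the marker class alone, where it was high. Its calls therefore add no support beyond the counts themselves. Sox5 was higher by 1.70 (SE 0.89) and did not pass (edgeR adjusted p = 0.175), against a median of 0.0233 over all genes. The Sox5 levels of the 2 classes did not overlap between libraries, 711 and 820 CPM against 78.0 and 387 CPM. The Sox5 call depended on the setting: it passed with at most 20% mitochondrial UMIs (2.61, edgeR adjusted p = 0.0108) and with trimmed-mean (TMM) scaling (2.03, edgeR adjusted p = 0.0307). Without replicate 1 the Sox5 change was 3.19 and without replicate 2 it was 1.05, both with no test.

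Globin-rich barcodes, the red cells, held little of either gene. Most of their depth was globin. Outside globin and mitochondrial genes they had a median of 705 UMIs per barcode, against 1871 in marker barcodes. Sox6 had 15 UMIs in 12 of 474 barcodes of replicate 1 (2.53%, interval 1.31 to 4.38) and 4 UMIs in 4 of 373 of replicate 2 (1.07%, 0.293 to 2.72). Its level was 4.56 and 1.45 CPM (3.01 ± 2.20, SD, n = 2), and no barcode had more than 2 UMIs. Barcodes with Sox6 were deep, with a median of 11583 and 11497 UMIs against 5937 and 6024 in those without. Thinned to 1000 UMIs, Sox6 was expected in 0.363% and 0.101% of globin-rich barcodes. The UMIs drawn include globin, which made up 88.3% and 89.4% of the class, so these shares are lowered by it.

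Sox5 had 6 UMIs in globin-rich barcodes of replicate 1 and 1 in replicate 2. The 6 UMIs came from the single barcode that was in all 3 classes, so that the class alone held 0 in replicate 1. The order of classes for Sox5 was marker, Ptprc, barcodes in no class (38.1 ± 3.28 CPM, SD, n = 2) and globin-rich (1.09 ± 1.03). For Sox6 it was marker, barcodes in no class (124 ± 88.3), Ptprc (4.72 ± 6.68) and globin-rich (3.01 ± 2.20), where the last 2 differed by less than their spread. Their order turned without the barcodes of more than 1 class, at 0 CPM in Ptprc and 2.87 in globin-rich barcodes, and with globin and mitochondrial genes left out of the totals, at 6.02 and 27.2 per 1e6 UMIs. On the latter scale no-class barcodes with over 80% mitochondrial UMIs, set apart after values were seen, had a mean Sox6 level of 2280. Marker barcodes had 1344, so the first places depend on the scale as well.

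Against globin-rich barcodes, the pooled Sox6 level of marker barcodes was 397-fold higher (counting interval 251 to 671) than in barcodes of the globin-rich class alone. Globin transcripts filled 88.3% and 89.4% of the UMIs of that class, so most genes were lower there: edgeR called 93.5% of genes tested in marker against globin-rich barcodes, 91.4% as higher in marker barcodes. Sox5 (log2 fold change 11.45, SE 1.33, edgeR adjusted p = 6.36e-17) and Sox6 (8.70, SE 1.13, edgeR adjusted p = 3.73e-14) were among these. The median over all genes was 8.88, so that relative to it Sox6 stood at -0.18 and Sox5 at 2.57. With TMM scaling the median over all genes moved to 4.02, and relative to it Sox5 stood at 1.62 and Sox6 at -1.74. Leaving out a replicate gave 10.50 and 12.94 for Sox5, whose globin-rich side held 1 UMI, and 7.93 and 9.66 for Sox6, with no test. With DESeq2 size factors Sox6 was no longer called (1.61, edgeR adjusted p = 0.108). The share of higher genes among those called was 97.8% with total UMIs, 80.1% with TMM and 64.7% with DESeq2 size factors. With globin and mitochondrial genes left out of the totals, Sox6 stood at 40.3 and 14.1 per 1e6 UMIs in globin-rich barcodes against 1233 and 1456 in marker barcodes, and Sox5 at 16.1 and 3.52 against 1010 and 811. These levels include barcodes of more than 1 class, and the 16.1 rests wholly on the barcode in all 3 classes.

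In Ptprc against globin-rich barcodes, 87.9% of genes tested were called, 85.9% as higher in Ptprc barcodes. Sox5 was called higher (9.75, SE 1.34, edgeR adjusted p = 9.17e-13; median of all genes 8.49), but not with DESeq2 size factors (3.23, edgeR adjusted p = 0.0854). Without replicate 1 this Sox5 change was 7.31 and without replicate 2 it was 11.90, with no test, and it depends on the 1 UMI of the globin-rich side. For Sox6 no fold is given here, because the Ptprc class alone held 0 UMIs. With total UMIs its lower fitted value did not pass (edgeR adjusted p = 0.397). It passed with TMM (edgeR adjusted p = 2.21e-05), with DESeq2 size factors (edgeR adjusted p = 9.37e-06) and without globin and mitochondrial genes (edgeR adjusted p = 0.0308). Among called genes the higher share was 97.7% with total UMIs, 69.8% with TMM and 54.5% with DESeq2 size factors.

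The only Sox9 UMI came from a marker barcode of replicate 1 with 3228 UMIs, 2 of the 5 marker genes, 1 UMI of Sox5 and 189 of Malat1. Its share was 1 of 32 barcodes (3.13%, interval 0.0791 to 16.2) there and 0 of 23 in replicate 2, which by a floor of 3 counts allows up to 13.0% (upper end of the exact interval 14.8%). The single UMI is 9.53 CPM. The floor of 3 counts corresponds to 28.6 CPM in replicate 1 and 24.2 in replicate 2, and levels under it cannot be told from 0 at this depth. Sox9 is a short gene, and per kilobase of exon the same limit is 6.92 and 5.86 CPM per kb, against the 49.5 to 86.1 CPM per kb of Sox5 and Sox6. Per kilobase of gene span it is 5.17 and 4.38, which is above the values of Sox5 and Sox6 on that scale. The depth thus separated Sox9 from its partners on the exon scale and not on the span scale. Without a length scale the limits lay under the 711 to 1277 CPM of Sox5 and Sox6 in marker barcodes. Whether these UMI counts grow with either length was not tested.

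A list of cartilage matrix genes, which includes the SOX9 targets Col2a1 and Acan, gave few UMIs. Control by the 3 factors was not tested for its members. Of 20 such genes 12 had any UMI, 88 UMIs in all, of which Prg4 alone gave 44. In marker barcodes the list summed to 95.3 and 129 CPM. Col2a1, the main cartilage collagen, had 0 UMIs in all barcodes, as did Col9a1, Col11a1, Matn1, Matn3, Matn4, Snorc and Chad. This allows up to 0.411 CPM over all barcodes of both libraries, most of whose UMIs are globin. In marker barcodes alone the floor of 3 counts is higher, at 28.6 CPM in replicate 1 and 24.2 in replicate 2. Prg4, the lubricating proteoglycan of joint and serosal surfaces, had 0 and 8 UMIs in marker barcodes and 19 and 0 in Ptprc barcodes. Col27a1, a fibrillar collagen of cartilage, had 6 and 3 UMIs in marker barcodes, and Fmod, a small matrix proteoglycan, had 2 and 4. Prg4 was the only member tested, and in marker against Ptprc barcodes it changed by -1.38 (SE 1.17, edgeR adjusted p = 0.485).

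Of 26 regulators of cartilage development, 25 had a row, 15 had UMIs and 6 could be tested in marker against Ptprc barcodes: 1 was higher and 2 were lower, where 15.9% and 8.8% of all genes tested were, and their median log2 fold change was -0.82 against 0.0233 over all genes. The 3 called genes passed the filter on low counts through the class where they are high, so their calls are no test of the list. Zbtb20, a zinc finger repressor needed for cartilage maturation, was the most abundant, with 185 and 393 UMIs in marker barcodes and 168 and 24 in Ptprc barcodes (log2 fold change 1.43, edgeR adjusted p = 0.235). Trps1 (20 and 24 against 135 and 1 UMIs) and Arid5b (17 and 35 against 71 and 16 UMIs) also did not pass, at edgeR adjusted p = 0.818 and 0.391. Runx1, a factor of blood and cartilage precursors, was lower in marker barcodes, with 2 and 0 UMIs against 141 and 17 (-7.21, edgeR adjusted p = 2.42e-06). Mef2c, which acts in chondrocyte maturation and in B cells, was lower as well (5 and 9 against 175 and 28 UMIs, -4.02, edgeR adjusted p = 3.06e-04). Runx2, the regulator of bone and hypertrophic cartilage, had 1 and 1 UMI in marker barcodes and 54 and 1 in Ptprc barcodes. Gli3, a transcription factor of hedgehog signalling named after its values were seen, was the higher gene, with 18 and 23 UMIs in marker barcodes and 0 in Ptprc barcodes (edgeR adjusted p = 1.82e-04).

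Genes that act with SOX6 in red cell precursors gave few UMIs in globin-rich barcodes. Lmo2, a bridging protein of the erythroid transcription complex, was the exception, with 95 and 92 UMIs in globin-rich barcodes and 0 in marker barcodes. Bcl11a, the partner of SOX6 in silencing embryonic globin, had 0 UMIs in globin-rich and marker barcodes and 97 and 11 in Ptprc barcodes. The embryonic globin genes Hbb-bh1 and Hba-x and the erythroid factors Klf1 and Gfi1b had 0 UMIs in all barcodes, and the embryonic Hbb-y had 4 and 2, all in globin-rich barcodes. Zfpm1, a cofactor of GATA1, had 5 and 6 in globin-rich and 6 and 8 in marker barcodes. In marker against Ptprc barcodes 3 of the 13 members outside the globins were tested, and 1 was higher and 1 lower, where 15.9% and 8.8% of all genes tested were. Cyb5r3, a reductase that keeps haemoglobin iron reduced, was higher (18 and 10 against 4 and 0 UMIs, edgeR adjusted p = 0.0129). It had passed the filter on low counts through the marker class, where it was high, so its call adds no support beyond the counts. Bcl11a was lower (edgeR adjusted p = 1.92e-06) and had passed the filter through the Ptprc class, the only class that held it. Zbtb7a, a repressor of fetal globin, did not pass (edgeR adjusted p = 0.401).

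B cell genes were lower in marker than in Ptprc barcodes. Of its 13 members 6 were tested in marker against Ptprc barcodes and all 6 (Ebf1, Bank1, Pax5, Ms4a1, Cr2 and Cd22) were lower, where 8.8% of all genes tested were. These genes had at most 6 UMIs in a library's marker barcodes and passed the filter on low counts through the Ptprc class, so this count does not test the list. In marker barcodes the list summed to 153 CPM in replicate 1 and 0 in replicate 2, against 4897 and 7609 CPM in Ptprc barcodes. The 6 Ebf1 UMIs of marker barcodes came from the barcode in all 3 classes. That barcode is also counted among the Ptprc barcodes with Sox5.

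Among the other SOX genes none came near Sox5 and Sox6. Of the 20 family members 10 had UMIs. Sox4, which acts in progenitors of many tissues, had 21 UMIs, of which 4 and 8 lay in marker barcodes and 6 and 0 in Ptprc barcodes. Sox12, its SoxC relative, had 17 UMIs, of which 4 and 10 lay in marker barcodes. Sox7 (9 UMIs) and Sox18 (7 UMIs), factors of endothelium, had all of theirs in barcodes of no class. Sox10, the factor of glial and pigment cells, had 0 UMIs, as had Sry, Sox1, Sox2, Sox3, Sox11, Sox14, Sox15, Sox21 and Sox30.

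To find genes with the most similar pattern, the barcodes with a UMI were compared between genes by the Jaccard index, the number of barcodes with both divided by the number with either, over 1857 barcodes and 6545 other genes. The 5 nearest to Sox5 were Bnc2 (0.393), Efna5 (0.378), Lncpint (0.374), Nr3c2 (0.367) and Mast4 (0.360). Those near Sox6 included Efna5 (0.313), Mast4 (0.292), Rora (0.289) and Ror1 (0.281). Efna5, a membrane-bound ephrin ligand, and Mast4, a kinase, were near both. Of these genes Bnc2, a zinc finger protein also on the mesothelial list, had 98.3% of its UMIs in marker barcodes, whereas Lncpint, a long noncoding RNA, had 51.8%. Sox5 and Sox6 were less alike than these, at 0.228, which ranked Sox6 at 316 for Sox5 and Sox5 at 54 for Sox6. Apart from Lncpint, at 138 kb, the neighbours named spanned from 277 to 734 kb, all longer than the 40.6 kb median. Depth is shared by all genes of a barcode and enters this index.

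The start sites known for the 2 genes were also read, since they were found together in marker barcodes. The RefSeq table (GRCm38.p6) matched 2 of the 3 members, with 1 window for Sox5 and 6 for Sox6. The lines give the 250 bases before a start, Sox5 on chr6:143947107-143947356 and the outermost Sox6 start on chr7:116038745-116038994, both on the minus strand. Capitals mark ACAAT, the core motif that SOX proteins bind, searched on both strands (ACAAT or ATTGT).
Sox5: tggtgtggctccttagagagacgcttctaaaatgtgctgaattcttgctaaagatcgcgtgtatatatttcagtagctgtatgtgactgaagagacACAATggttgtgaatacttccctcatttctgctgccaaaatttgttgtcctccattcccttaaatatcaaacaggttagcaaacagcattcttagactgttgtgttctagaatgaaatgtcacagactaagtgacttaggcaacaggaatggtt
Sox6: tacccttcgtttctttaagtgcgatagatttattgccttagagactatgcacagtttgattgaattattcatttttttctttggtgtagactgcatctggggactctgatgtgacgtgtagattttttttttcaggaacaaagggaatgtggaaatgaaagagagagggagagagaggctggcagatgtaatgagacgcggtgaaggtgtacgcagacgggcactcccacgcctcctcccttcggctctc

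The Sox5 window held 1 match and this Sox6 window 0, while the other 5 Sox6 windows, in order from the outermost, held 0, 2, 0, 2 and 3. The motif was present in 9086 of 32851 windows of the table (27.7%). The Sox5 window lies 834.871 kb inside the outermost start of the GENCODE gene model, and the Sox6 window lies 0.052 kb from its own. A match describes the letters of the window only.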

How the data were processed

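The 2 libraries of 1 group were made on the 10x Chromium. The authors deposited UMI counts for each gene in each barcode, as whole numbers without normalization. Cell Ranger 7.1.0, Seurat 5 and mm10 are named in the submitters' processing notes, with no role given. How barcodes were called, whether doublets were removed, and how introns and strand were counted were not stated in these notes or the labels. No doublet caller was run, and barcodes of more than 1 class were left out of the tests. The lowest depth of a barcode was 500 UMIs in replicate 1 and 501 in replicate 2. Of 32285 gene IDs 32235 matched GENCODE M21 (mm10).

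UMIs were summed per class and library and tested in edgeR 4.0.16 (R 4.3.3): genes passing filterByExpr, scaling by total UMIs, and the quasi-likelihood test, blocked by library because classes of a library share their blood sample. The threshold was a Benjamini-Hochberg adjusted p of 0.05. The spread is the one shared across genes. DESeq2 1.42.0 was an alternative. The scripts were tested on simulated data. Floors are 3 counts. Intervals are exact binomial (scipy 1.17.1). Counts between libraries have 1 sample a side and were not tested.

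Genes named are the members, other SOX genes with at least 5 UMIs, at most 6 members of each other list by UMIs (at least 5 in the classes), and the 5 nearest genes by Jaccard index among genes in at least 10 barcodes. Some genes that the rule names are not reported here. Genes named outside this rule are marked, and those on the marker lists are named as a check of the class. The members and lists were chosen with earlier results of these data known.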

Additional observations from a re-analysis of the deposited data

How the results depend on the processing

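Without the library block, the log2 fold change of Sox5 in marker against Ptprc barcodes was 1.42 (edgeR adjusted p = 0.0571) and that of Sox6 was 13.31, and dropping the block changed no call of either gene in any comparison. Leaving out a replicate gave 13.27 to 13.31 for Sox6 in marker against Ptprc barcodes and 1.05 to 3.19 for Sox5. Sox5 passed there with TMM scaling (2.03) and at most 20% mitochondrial UMIs (2.61). Over its alternatives the edgeR and DESeq2 adjusted p ran from 0.0108 to 0.426. Sox6 in marker against globin-rich barcodes fell to 1.61 with DESeq2 size factors, and Sox5 in Ptprc against globin-rich barcodes to 3.23. The fitted Sox6 value in Ptprc against globin-rich barcodes rests on 0 Ptprc UMIs and the prior count, so it measures no fold. It was -4.80 with total UMIs, passed with TMM (-7.81), DESeq2 size factors (-8.25) and no globin or mitochondrial genes (-5.31), and with 3 marker genes required it reversed to 0.52, not called. In that setting 1 Ptprc barcode with a Sox6 UMI left the marker class.

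Genes called in marker against globin-rich barcodes were 2900, and 1029 with DESeq2 size factors, 1706 with TMM and 8257 with no filter on low counts. In Ptprc against globin-rich barcodes they were 2729, and 803, 1149 and 7037. In marker against Ptprc barcodes they were 767, split 64.4% higher, and with no globin or mitochondrial genes 50.4% higher.

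With totals free of globin and mitochondrial genes, mean levels were 910 per 1e6 UMIs for Sox5 and 1344 for Sox6 in marker barcodes, and 9.81 and 27.2 in globin-rich ones. The thinned share of marker barcodes with Sox5 (mean 43.4%) was 47.7% at most 20% mitochondrial UMIs, 43.8% without overlapping barcodes, 48.6% with 3 marker genes, 26.3% at 500 UMIs and 68.0% at 2000. For Sox6 (56.4%) it was 60.5% at most 20% mitochondrial UMIs, 62.1% with 3 marker genes, 34.5% at 500 and 79.4% at 2000. In globin-rich barcodes the thinned Sox5 share (0.0886%) was 0.0216% without overlaps and the Sox6 share (0.232%) was 0.469% at 2000 UMIs. In Ptprc barcodes the Sox6 share (0.439%) was 1.64% at 2000. The share of marker barcodes with both genes (58.2%) was 71.8% with 3 marker genes. The remaining causes were not tested. The 12 Ptprc barcodes of replicate 2 are the main limit of depth.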

Other observations

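Barcodes dominated by mitochondrial RNA carried Sox6 as well. Of the barcodes in no class, 636 had over 80% mitochondrial UMIs, with a median of 32 UMIs that were neither globin nor mitochondrial. Sox6 had 43 UMIs in 35 of 359 of them in replicate 1 and 23 UMIs in 20 of 277 in replicate 2. Per 1e6 UMIs outside globin and mitochondrial genes this is 2875 and 1685, against 1233 and 1456 in marker barcodes. The libraries do not overlap between the groups, and no test was made because the barcodes were set apart after values were seen. Among 6422 genes with such UMIs in these barcodes Sox6 ranked 29. The list was led by Gm42418, a locus overlapping ribosomal RNA, and Cmss1. Sox5 had 9 and 9 UMIs there, 602 and 659 per 1e6 against 1010 and 811 in marker barcodes. Sox9 had 0.

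A barcode of replicate 1 just under the 50% globin limit had 21 UMIs of Sox6, more than all but 3 marker barcodes. It had 4717 UMIs, 44.5% of them globin, 609 genes, 0.276% mitochondrial UMIs, and 0 UMIs of Sox5. Red cell genes were present: Slc4a1, the anion exchanger, with 35 UMIs, Car2, a carbonic anhydrase, with 18 and Alas2, the first enzyme of erythroid haem synthesis, with 17. The nuclear RNAs Malat1 and Neat1 had 41 and 18 UMIs. Its leading genes by fold over the other barcodes of replicate 1, with 10 CPM added to both sides, were Xpo7, Trak2 and Zdhhc14. The other 17 barcodes with 40 to 50% globin UMIs had 0 UMIs of Sox6. All genes of this paragraph were named after their values were seen.

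Sox7 and Sox18 had their UMIs in 3 and 4 barcodes, 8 of 9 and 5 of 7 UMIs in replicate 2. In barcodes of no class all 12 endothelial list genes had UMIs, with a summed level of 194 and 133 CPM, of which Vwf and Pecam1, also known from platelets and named after their values were seen, gave 94.6 and 42.8 and 48.6 and 26.2. The platelet list summed to 1859 and 1318 CPM in the same barcodes. The part of either cell type in the Sox7 and Sox18 UMIs was not tested.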
